A study of Mus musculus with 8 samples.

Results

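The genes described here were grouped by their role in fatty acid handling. They are the fatty acid binding proteins Fabp1 and Fabp2, the uptake receptor Cd36, the lipid droplet coat and fusion proteins Plin2, Plin5, Cidec and Cideb, the lipase Pnpla2 with its inhibitor G0s2, and the triglyceride synthase Dgat2. All 10 were among the 13696 gene symbols measured by RNA sequencing of mouse liver.

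Both groups of mice carried loxP-flanked Bicd2 (Bicd2fl/fl), a gene for an adaptor between the dynein motor and its cargo. The 4 Alb-Cre libraries came from mice that also carried Cre recombinase under the albumin promoter, which is active in hepatocytes. The state of the gene in each liver cell type was not measured. The 4 Alb-WT libraries came from mice without Cre. Every mouse had the S-100 model of autoimmune hepatitis, in which a liver supernatant fraction is given with complete Freund's adjuvant. Intraperitoneal doses of 2.5 mg were given weekly, 3 in all, and the liver was collected when 2 weeks had passed since the last of them. No uninjected liver was analysed here, and the labels used here state neither age nor whether each library was a separate animal, so each p-value rests on the spread among these libraries, part of which may be technical.

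Fatty acids that enter a hepatocyte are carried in the cytosol by binding proteins, and are either burnt or esterified to triglyceride, the last step of which DGAT enzymes catalyse. Triglyceride is stored in droplets whose surface is covered by perilipins and CIDE proteins, and is released again by lipases, the first of which is adipose triglyceride lipase (Pnpla2). Perilipins limit the access of this lipase to the droplet, G0s2 inhibits it directly, and Cidec and Cideb move lipid between droplets, Cideb also taking part in lipoprotein secretion. Many of these genes are known targets of the nuclear receptors of the PPAR family, which bind direct repeats of AGGTCA with a 1-base spacer.

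Levels are FPKM, fragments scaled by gene length and library total, so that they can be set side by side between genes. A gene was called when its Benjamini-Hochberg adjusted p in limma, a linear model fitted here to log2(FPKM + 1) over 11077 genes, was under 0.05. Fragments behind the FPKM values ranged from 32524901 to 38893714 per library over the listed genes. Bicd2 was 0.705, 0.568, 0.509 and 0.732 FPKM in Alb-Cre replicates 1 to 4, below all Alb-WT values of 2.46, 3.02, 2.8 and 3.11 FPKM. Alb-Cre replicate 4 stood apart: across genes its Pearson correlation was 0.9577 to 0.9598 with the other Alb-Cre libraries and 0.9741 to 0.9772 with the Alb-WT libraries, and among Alb-Cre replicates 1 to 3 it was 0.9945 to 0.9963. Fold changes of the 10 genes and counts over gene lists are therefore given with and without that library.

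Promoters of 4 genes are shown as examples among the called genes: a binding protein pair, a droplet coat and a lipase. The fifth called gene, Cidec, had 2 windows without a match to the motifs marked here and is not printed. RefSeq promoter windows (build GRCm38.p6) matched 9 of the 10 genes by symbol, all but Dgat2. Shown are the 250 bases before the start of Fabp1 (chr6:71199629-71199878, plus strand), Fabp2 (chr3:122894822-122895071, plus strand), Plin2 (chr4:86670060-86670309, minus strand) and Pnpla2 (chr7:141454938-141455187, plus strand), each 5′ to 3′ along the gene. Capitals mark AGGTCA on either strand, TATAAA on either strand, and matches to the direct repeat (AGGTCA, any base, AGGTCA; either strand) with up to 2 mismatches in its fixed letters.
Fabp1: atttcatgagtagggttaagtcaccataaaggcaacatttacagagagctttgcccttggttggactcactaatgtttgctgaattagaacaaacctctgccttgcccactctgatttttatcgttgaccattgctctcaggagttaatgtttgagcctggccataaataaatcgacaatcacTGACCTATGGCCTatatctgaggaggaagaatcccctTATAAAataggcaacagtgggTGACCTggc
Fabp2: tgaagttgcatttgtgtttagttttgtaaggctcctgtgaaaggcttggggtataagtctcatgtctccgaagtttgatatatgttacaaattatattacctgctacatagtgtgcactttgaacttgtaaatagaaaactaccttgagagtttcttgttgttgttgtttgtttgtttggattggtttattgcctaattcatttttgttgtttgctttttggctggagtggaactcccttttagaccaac
Plin2: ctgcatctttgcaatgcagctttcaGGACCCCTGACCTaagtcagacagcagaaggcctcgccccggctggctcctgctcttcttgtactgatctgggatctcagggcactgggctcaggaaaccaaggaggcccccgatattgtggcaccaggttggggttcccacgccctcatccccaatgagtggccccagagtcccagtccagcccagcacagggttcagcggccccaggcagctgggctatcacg
Pnpla2: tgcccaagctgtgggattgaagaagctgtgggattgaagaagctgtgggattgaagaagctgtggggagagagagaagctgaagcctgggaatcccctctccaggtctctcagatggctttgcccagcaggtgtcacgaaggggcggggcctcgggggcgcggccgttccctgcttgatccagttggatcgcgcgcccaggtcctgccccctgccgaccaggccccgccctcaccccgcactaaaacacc
Fabp1 held the direct repeat with 1 mismatch at 67 to 55 bases before its start, a TATAAA at 30 to 25 bases and a further single AGGTCA at 9 to 4 bases, the other copy of AGGTCA lying inside the repeat. Plin2 held the repeat with 2 mismatches at 225 to 213 bases, and Cd36, which is not shown, with 2 mismatches at 63 to 51 bases. The bases after the start used for Cd36 were not found in a GENCODE transcript, unlike those of the 4 genes shown. Among all 32851 promoter windows of this length 3.24% held such a match, 14% an AGGTCA and 12.4% a TATAAA on either strand. No capitals fell in the windows of Fabp2 and Pnpla2, and the repeat without mismatch was in 0.0335% of all windows and in none of the 9 genes. A match here describes letters and no binding was measured.

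Of the 10 genes 4 rose in Alb-Cre livers (Fabp1, Fabp2, Plin2 and Cidec), 1 fell (Pnpla2) and 5 did not pass (Cd36, Plin5, Cideb, G0s2 and Dgat2). Over all tested genes 8.48% were called higher and 23.3% lower, 31.8% in all, so that 73.3% of calls were lower. That share was 44.7% with median-of-ratios scaling, 48.6% with quantile normalization, 51.8% with a gene length correction and 55.7% over genes of at least 5 FPKM on average. The 4 against 4 values did not overlap for Fabp2, Plin2 and Cidec on the higher side, against 9.27% of all genes, and for Pnpla2 on the lower side, against 21.4%. The median log2 fold change was 0.26 over the 10 genes and -0.13 over all tested genes, and 0.40 and -0.16 without Alb-Cre replicate 4. Without Alb-Cre replicate 4, Plin5 and G0s2 were called higher as well, making 6 higher and 1 lower, where 15.2% and 46.1% of all genes were called in those directions.

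**Figure D1:**
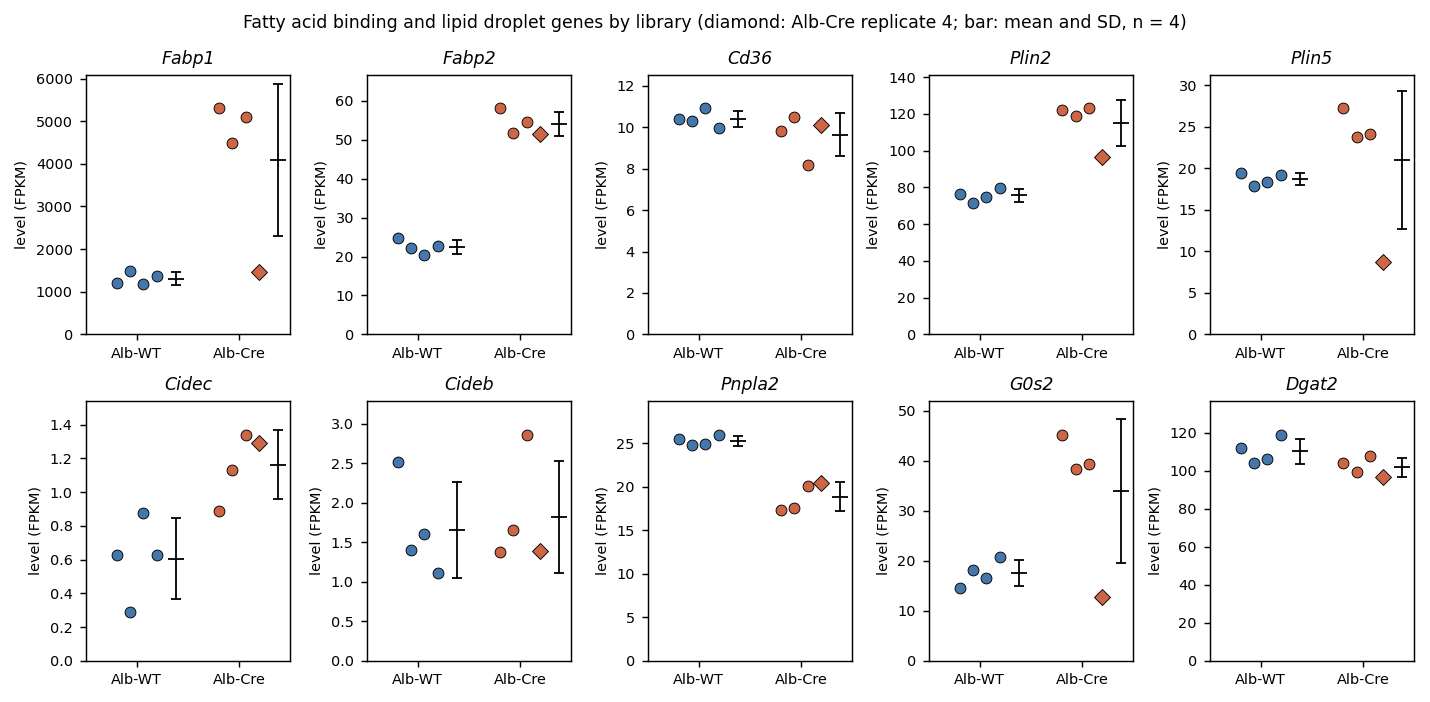
Level in FPKM (vertical axes, linear from 0) of each of the 10 genes in the 4 Alb-WT and 4 Alb-Cre libraries, 1 point per library in replicate order, with the mean and SD beside each group. Fabp1, G0s2 and Plin5 were high in Alb-Cre replicates 1 to 3 and not in replicate 4 (diamond), whereas Fabp2 was high in all 4.

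Fabp1, the main cytosolic fatty acid carrier of hepatocytes, was the most abundant of the 10 genes and ranked 42nd of all rows by Alb-WT mean and 18th by Alb-Cre mean. Its level was 5299, 4494, 5106 and 1453 FPKM in Alb-Cre replicates 1 to 4 and 1196, 1483, 1185 and 1374 FPKM in Alb-WT replicates 1 to 4. Alb-Cre replicates 1 to 3 lay far above every Alb-WT library, and replicate 4 lay inside the Alb-WT range, below Alb-WT replicate 2. The means were 4088 ± 1790.0 FPKM in Alb-Cre and 1309 ± 144 FPKM in Alb-WT (SD, n = 4 each), a log2 fold change of 1.48 (SE 0.379, limma adjusted p = 0.0207). Without Alb-Cre replicate 4 the Alb-Cre mean was 4966 ± 421 FPKM (SD, n = 3), 3.79 times the Alb-WT mean, with a log2 fold change of 1.93 (limma adjusted p = 3.09e-08). The call was lost on leaving out Alb-Cre replicate 1, 2 or 3 (adjusted p = 0.0597, 0.0553 and 0.0608) or Alb-WT replicate 1 or 3 (0.0585 and 0.0593).

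Fabp2, the related carrier best known from enterocytes, showed the most even rise. Its level was 58, 51.8, 54.6 and 51.5 FPKM in Alb-Cre replicates 1 to 4 and 24.7, 22.2, 20.4 and 22.6 FPKM in Alb-WT replicates 1 to 4. Every Alb-Cre value lay far above every Alb-WT value, and replicate 4 was like its group. The means of 54 ± 3.05 and 22.5 ± 1.78 FPKM (SD, n = 4 each) gave a log2 fold change of 1.23 (SE 0.074, limma adjusted p = 4.82e-05), and 1.25 without replicate 4. Of 10 enterocyte markers only Anpep and Apoa4, both also expressed in liver, were among the genes analysed here, and they moved apart: Apoa4 rose by 2.57 and Anpep fell by 0.61 on the log2 scale. Their part in the result for Fabp2 was not tested.

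Cd36, a membrane receptor that takes up long-chain fatty acids, did not pass. Its level was 9.79, 10.5, 8.17 and 10.1 FPKM in Alb-Cre replicates 1 to 4 and 10.4, 10.3, 10.9 and 9.94 FPKM in Alb-WT replicates 1 to 4, with overlap between the groups. The log2 fold change was -0.10 (95% confidence interval -0.28 to 0.08, limma adjusted p = 0.348), -0.12 without Alb-Cre replicate 4 (adjusted p = 0.188) and 0.08 with median-of-ratios scaling.

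Among the droplet coats, Plin2, the perilipin present on most hepatocyte droplets, rose. It stood at 122, 119, 123 and 96.8 FPKM in Alb-Cre replicates 1 to 4 and 76.6, 71.6, 75 and 79.8 FPKM in Alb-WT replicates 1 to 4. All Alb-Cre values were above all Alb-WT values, with replicate 4 about midway. Group means of 115 ± 12.4 and 75.8 ± 3.41 FPKM (SD, n = 4 each) gave a log2 fold change of 0.59 (SE 0.088, limma adjusted p = 0.0027), or 0.67 without replicate 4.

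Plin5, a perilipin that tethers droplets to mitochondria, was split within the Alb-Cre group. Its level was 27.2, 23.8, 24.1 and 8.74 FPKM in Alb-Cre replicates 1 to 4 and 19.4, 17.9, 18.3 and 19.2 FPKM in Alb-WT replicates 1 to 4. Alb-Cre replicates 1 to 3 were above every Alb-WT library and replicate 4 below every one, at 0.467 times the Alb-WT mean. Over 8 libraries the log2 fold change was 0.05 (95% confidence interval -0.63 to 0.72, limma adjusted p = 0.915), -0.04 after rescaling to a common FPKM sum. Without replicate 4 it was 0.40 (95% confidence interval 0.27 to 0.53, adjusted p = 0.000212).

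Cidec, which fuses droplets into larger ones and is scarce in lean liver, was the least abundant of the 10 genes. Its level was 0.887, 1.13, 1.34 and 1.29 FPKM in Alb-Cre replicates 1 to 4 and 0.627, 0.291, 0.874 and 0.625 FPKM in Alb-WT replicates 1 to 4. The groups did not overlap, but Alb-Cre replicate 1 and Alb-WT replicate 3 nearly met: each rested on 54 fragments, with 95% Poisson intervals, for counting error only, of 0.666 to 1.16 and 0.657 to 1.14 FPKM. Group means were thus 1.16 ± 0.205 against 0.604 ± 0.239 FPKM (SD, n = 4 each), with a log2 fold change of 0.44 (SE 0.122, limma adjusted p = 0.0276), which the added 1 FPKM understates at this level: it was 0.90 with 0.1 FPKM added (adjusted p = 0.038) and 1.05 on recovered fragments with limma-voom (adjusted p = 0.0379). On the log2(FPKM + 1) scale it was 0.41 without Alb-Cre replicate 4 (limma adjusted p = 0.0144). The call was lost without Alb-Cre replicate 2 or 3 (adjusted p = 0.0587 and 0.0762) or Alb-WT replicate 1, 2 or 4 (0.0636, 0.0583 and 0.0588).

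Cideb, its relative with a role in lipoprotein lipidation, did not pass. Its level was 1.37, 1.65, 2.86 and 1.39 FPKM in Alb-Cre replicates 1 to 4 and 2.51, 1.4, 1.6 and 1.11 FPKM in Alb-WT replicates 1 to 4, so that the highest library of each group lay well above its other 3. The log2 fold change was 0.08 (95% confidence interval -0.36 to 0.52, limma adjusted p = 0.758), 0.15 without Alb-Cre replicate 4 (adjusted p = 0.504), -0.08 without Alb-Cre replicate 3 and -0.02 without Alb-WT replicate 4. In the GENCODE M21 annotation 76.3% of the exon bases of Cideb are shared with Nop9 on the opposite strand, and the strand setting of the counting is not given in the sources used here, so the level of Cideb is uncertain. Nop9 itself, a ribosome biogenesis gene named only for this overlap, ranged from 4.46 to 5.13 FPKM in Alb-Cre and from 4.43 to 4.7 FPKM in Alb-WT. None of the other 9 genes shared exon bases with another gene in that annotation.

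Pnpla2, the lipase that takes the first fatty acid from stored triglyceride, was the only one of the 10 that fell. Its level was 17.3, 17.6, 20.1 and 20.5 FPKM in Alb-Cre replicates 1 to 4 and 25.5, 24.8, 24.9 and 26 FPKM in Alb-WT replicates 1 to 4. All Alb-Cre values, replicate 4 included, were below all Alb-WT values. Pnpla2 averaged 18.9 ± 1.68 against 25.3 ± 0.57 FPKM (SD, n = 4 each), and the log2 fold change was -0.41 (SE 0.071, limma adjusted p = 0.00536), or -0.45 without replicate 4. The median gene stood at -0.13, and with median-of-ratios scaling, which moved the median gene to 0.02, Pnpla2 was at -0.22 (adjusted p = 0.043).

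G0s2, the inhibitor of that lipase, was high in 3 of the 4 Alb-Cre libraries. Its level was 45.2, 38.3, 39.3 and 12.8 FPKM in Alb-Cre replicates 1 to 4 and 14.5, 18.2, 16.6 and 20.8 FPKM in Alb-WT replicates 1 to 4. Replicate 4 was below every Alb-WT library, and the other Alb-Cre libraries were at 2.34 times the Alb-WT mean. The log2 fold change was 0.79 over 8 libraries (95% confidence interval 0.00 to 1.57, limma adjusted p = 0.106) and 1.19 without replicate 4 (adjusted p = 5.01e-06).

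Dgat2, which completes triglyceride synthesis, was abundant and nearly level. It stood at 104, 99.3, 108 and 96.7 FPKM in Alb-Cre replicates 1 to 4 and 112, 104, 106 and 119 FPKM in Alb-WT replicates 1 to 4, with overlap between the groups. The log2 fold change was -0.11 (95% confidence interval -0.27 to 0.04, limma adjusted p = 0.224) and -0.09 without Alb-Cre replicate 4 (adjusted p = 0.189), but 0.08 with median-of-ratios scaling, and -0.26 with quantile normalization, where it was called (adjusted p = 0.017).

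**Figure D2:**
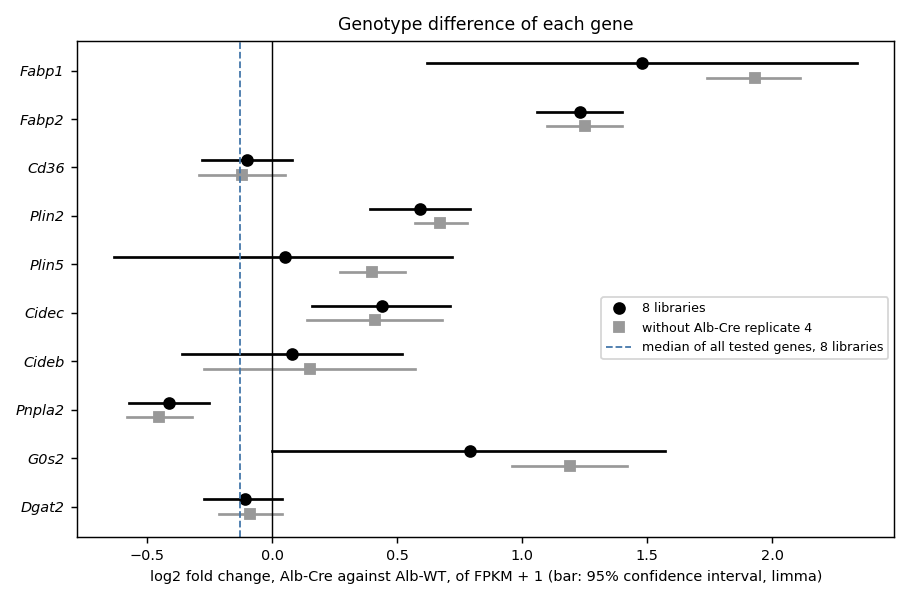
Log2 fold change of FPKM + 1, Alb-Cre against Alb-WT (horizontal axis), of each gene over 8 libraries (black circles) and without Alb-Cre replicate 4 (grey squares), with 95% confidence intervals from limma; the dashed line is the median of all tested genes, -0.13. The intervals of Fabp1, Plin5 and G0s2 were much narrower without replicate 4, while Fabp2, Cidec and Pnpla2 moved little.

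Replicate 4 did not depart from its group in every gene. On the log2 scale it was nearer to the Alb-WT mean than to the mean of Alb-Cre replicates 1 to 3 for 5 of the 10 genes (Fabp1, Cd36, Plin5, Cideb and G0s2), against 61.7% of all tested genes. Relative to the Alb-WT mean, Fabp2 was at 2.44 times in Alb-Cre replicates 1 to 3 and 2.29 times in replicate 4, and Cidec at 1.85 and 2.14 times. G0s2 was at 2.34 and 0.729 times and Plin5 at 1.34 and 0.467 times. The coefficient of variation of Plin5 was 3.79% in Alb-WT, 7.49% in Alb-Cre replicates 1 to 3 and 39.6% in all 4 Alb-Cre libraries. That of Fabp2 was 7.91%, 5.72% and 5.64%. Variation did not follow the nearer mean in every gene: in Alb-Cre replicates 1 to 3 and in all 4, Cd36 had 12.6% and 10.6%, and Plin2 1.73% and 10.7%.

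**Figure D3:**
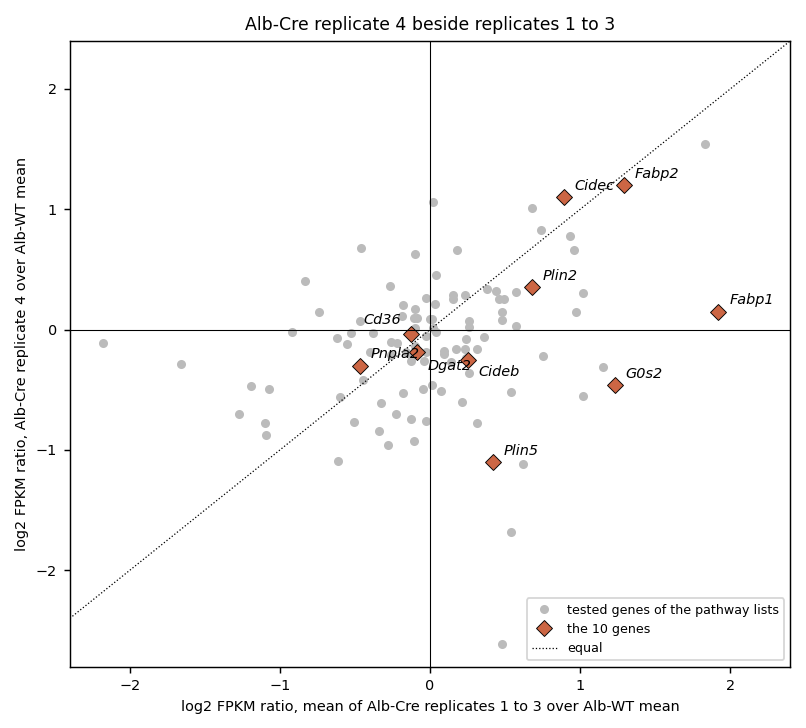
Log2 ratio of FPKM to the Alb-WT mean, for the mean of Alb-Cre replicates 1 to 3 (horizontal axis) and for Alb-Cre replicate 4 (vertical axis), of the 10 genes (diamonds, named) and the other tested genes of the pathway lists (grey). Fabp2 lies near the dotted line of equal ratios, and Fabp1, G0s2 and Plin5 lie far below it.

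Ratios within a library, in which library scaling cancels, set a lipase against its inhibitor and relatives against each other. The Pnpla2 to G0s2 ratio was 0.382, 0.459, 0.512 and 1.61 across the Alb-Cre libraries in replicate order, and 1.76, 1.37, 1.5 and 1.25 across the Alb-WT libraries. G0s2 thus outnumbered Pnpla2 per length in Alb-Cre replicates 1 to 3, and Pnpla2 outnumbered G0s2 in the other 5 libraries. The groups overlapped through replicate 4 (difference of mean log2 ratios -1.24, two-sided exact permutation p = 0.114), and without it the difference was -1.70. The Plin2 to Plin5 ratio was 4.48, 4.99, 5.1 and 11.1 in Alb-Cre against 3.94, 3.99, 4.1 and 4.16 in Alb-WT, without overlap. Its log2 difference was 0.56 with all libraries (two-sided exact permutation p = 0.0286, the smallest that 70 assignments allow, and 0.0857 adjusted over the 3 ratios). Without replicate 4 the difference was 0.26, for which no p was computed. The Cidec to Cideb ratio was 0.646, 0.684, 0.469 and 0.93 in Alb-Cre and 0.25, 0.208, 0.548 and 0.565 in Alb-WT, with overlap (log2 difference 0.90, two-sided exact permutation p = 0.114, and 0.73 without replicate 4), and carries the uncertainty of Cideb given above.

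**Figure D4:**
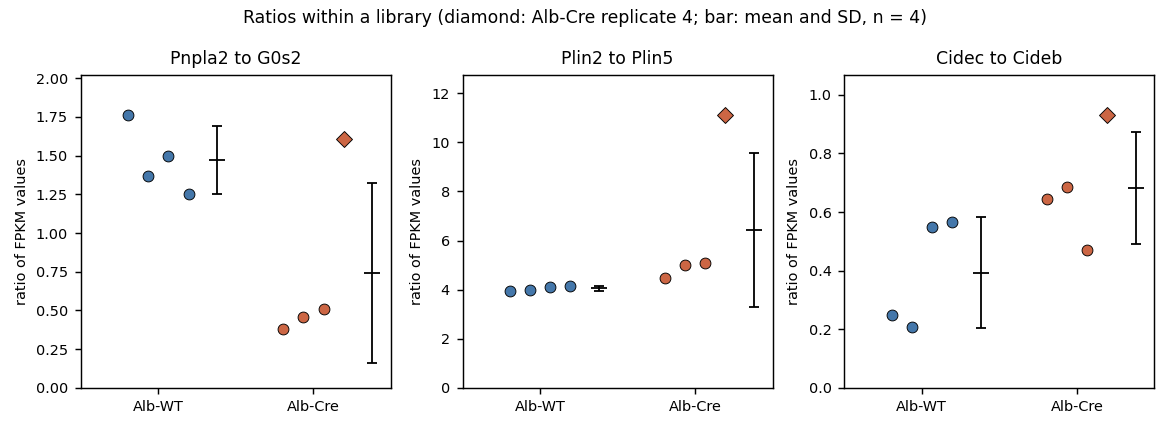
Ratio of FPKM values within each library (vertical axes, linear from 0) for Pnpla2 to G0s2, Plin2 to Plin5 and Cidec to Cideb, with the mean and SD of each group. Alb-Cre replicate 4 (diamond) lies among the Alb-WT values in the first ratio, at 1.61, and far above all other libraries in the second, at 11.1.

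Other genes of fatty acid uptake, binding and activation moved in both directions. Of 26 listed genes 21 were tested, of which 4 rose, 5 fell and 12 did not pass, with a median log2 fold change of -0.07. Without Alb-Cre replicate 4 the counts were 8 higher and 9 lower (median -0.04). For this and the next 4 lists, the shares over all genes are 8.48% higher and 23.3% lower with all libraries, and 15.2% and 46.1% without that one. Each gene named below as having risen or fallen kept its direction and call without it. The rises included Fabp5, a carrier of many tissues, with means of 18.8 ± 2.49 FPKM (Alb-Cre) and 5.56 ± 0.775 FPKM (Alb-WT; SD, n = 4 each, log2 fold change 1.60, limma adjusted p = 0.000105). Dbi, the acyl-CoA binding protein, and Acsl5, an acyl-CoA synthetase, rose by 0.89 and 0.82 on the log2 scale. Lpl, the lipoprotein lipase, Fabp7, another carrier, and Slc27a1, a fatty acid transporter, fell by 1.08, 0.84 and 0.63, and without Alb-Cre replicate 4 Lpl stood at -1.36. Fabp4, the carrier of adipocytes and macrophages, was 1.46 to 2.46 FPKM in Alb-Cre and 1.42 to 2.22 FPKM in Alb-WT and did not pass.

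Among other droplet coat and formation genes 22 of 24 were tested, and 0 rose, 3 fell and 19 did not pass (median -0.04). Without Alb-Cre replicate 4, 5 of these genes were called higher and 6 lower (median -0.02). The 3 that fell were the lipid transfer gene Vps13c (-0.53), the small GTPase gene Rab7 (-0.35) and the perilipin Plin4 (-0.29, log2 fold changes). With limma-voom, where no 1 FPKM is added, they were at -0.92, -0.35 and -0.73 in that order, so that Plin4 fell more than Rab7. The call for Plin4 was lost on leaving out Alb-Cre replicate 1 (limma adjusted p = 0.0593) or Alb-WT replicate 1, 2 or 3 (0.0608, 0.0529 and 0.0638), and with median-of-ratios scaling (0.0866), quantile normalization (0.587) or a gene length correction (0.356). The call for Rab7 was lost with median-of-ratios scaling (0.107).

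Of 20 listed lipolysis genes other than Pnpla2 and G0s2, 18 were tested, with 6 higher, 1 lower and 11 not passing and a median log2 fold change of 0.06. Without Alb-Cre replicate 4 the counts were 10 higher and 3 lower (median 0.36). Pnpla7, a lysophospholipase, had means of 19.5 ± 1.1 FPKM (Alb-Cre) and 11.5 ± 0.416 FPKM (Alb-WT; SD, n = 4 each, log2 fold change 0.72, limma adjusted p = 0.000249). Lyplal1, a lysophospholipase-like hydrolase, rose by 0.80, and Mgll, which splits the last monoglyceride, by 0.47 on the log2 scale. Lipa, the lysosomal acid lipase, fell by 0.39, a call lost with median-of-ratios scaling (limma adjusted p = 0.259) and with the length correction (0.179). Hormone-sensitive lipase, Lipe, was 1.41 to 1.61 FPKM in Alb-Cre and 1.33 to 1.44 FPKM in Alb-WT and did not pass.

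Genes of glycerolipid and sterol ester synthesis gave 3 higher, 3 lower and 13 not passing of 19 tested (22 listed, median -0.10). Leaving out Alb-Cre replicate 4, the counts were 5 higher and 5 lower (median -0.09). Gpam, which starts glycerolipid synthesis, rose by 0.74 on the log2 scale, with 36.5, 34.2, 34.9 and 19.9 FPKM in Alb-Cre replicates 1 to 4 and 17.3 to 18.5 FPKM in Alb-WT. Gpd1, which supplies glycerol phosphate, and the phosphatidate phosphatase gene Lpin3 rose by 0.40 and 0.43, the latter not being called without Alb-WT replicate 3 (limma adjusted p = 0.0506). The glycerol kinase gene Gk fell by 0.54, Tmem68, an acyltransferase-like gene, by 0.33 and the sterol acyltransferase gene Soat1 by 0.84 (-1.09 without Alb-Cre replicate 4). With limma-voom Soat1 was at -1.61, Tmem68 at -0.43 and Lpin3 at 0.77, as the added 1 FPKM understates changes at their low levels. The call for Tmem68 was lost without Alb-WT replicate 1 or 2 (adjusted p = 0.0558 and 0.0505), with median-of-ratios scaling (0.106) and with quantile normalization (0.227). That for Soat1 was lost without any single library other than Alb-Cre replicate 4 and Alb-WT replicate 2 (0.0563 to 0.0652). Dgat1, which shares the last step with Dgat2, was 4.32 to 5.86 FPKM in Alb-Cre and 5.04 to 6.68 FPKM in Alb-WT and did not pass.

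Transcription factors known to act on such genes gave 2 higher, 5 lower and 13 not passing of 20 tested (median -0.09). Leaving out Alb-Cre replicate 4 gave 4 higher and 8 lower (median -0.10). Ppargc1a, a coactivator of PPAR-alpha, had means of 1.46 ± 0.114 FPKM (Alb-Cre) and 3 ± 0.251 FPKM (Alb-WT; SD, n = 4 each, log2 fold change -0.70, limma adjusted p = 0.000494). Nr1i3, the constitutive androstane receptor gene, fell by 0.74, and Ppara by 0.39, a call lost for Ppara with median-of-ratios scaling (adjusted p = 0.0704). The added 1 FPKM understates falls at low levels: with limma-voom Ppargc1a was at -1.04 and Nr1i3 at -1.01. Cebpa rose by 0.43 and the pregnane X receptor gene Nr1i2 by 0.20. The call for Cebpa was lost without any single library other than Alb-Cre replicate 4 (0.0508 to 0.0918) and with quantile normalization (0.0601). That for Nr1i2, at adjusted p = 0.0499, was lost likewise without each of these 7 libraries (0.063 to 0.131). It was also lost with no filter (0.0503), a common FPKM sum (0.154), quantile normalization (0.0927), limma-voom (0.0524), the length correction (0.0657) and no intensity trend (0.0578). Pparg was 1.19 to 2.05 FPKM in Alb-Cre and 2.09 to 2.8 FPKM in Alb-WT and did not pass.

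**Figure D5:**
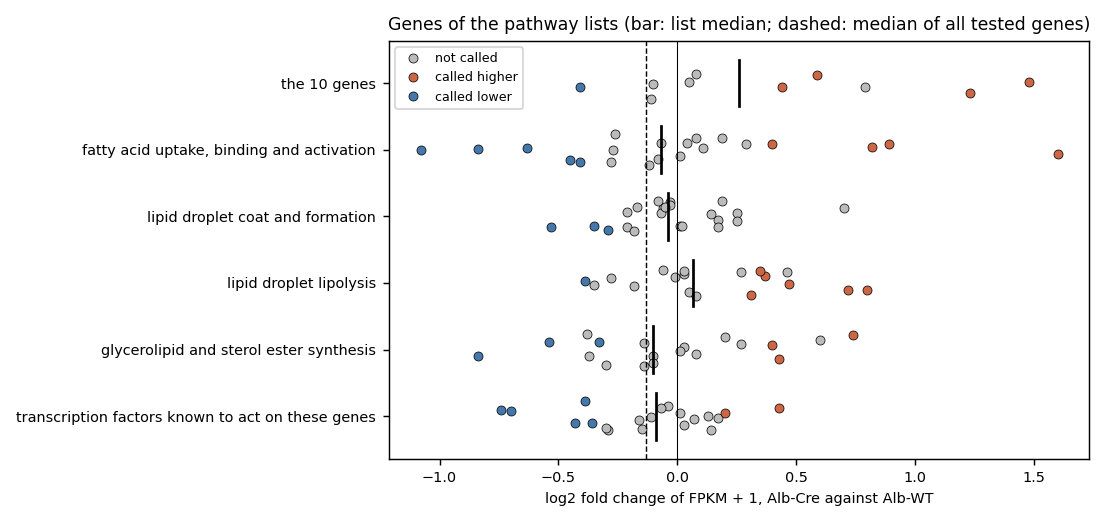
Log2 fold change of FPKM + 1, Alb-Cre against Alb-WT (horizontal axis), of each tested gene of the 10 and of the 5 pathway lists, 1 point per gene, coloured by call, with the list medians as bars and the median of all tested genes (-0.13) dashed. The median of the 10 genes was 0.26, and those of the lists lay between -0.10 and 0.06. Without Alb-Cre replicate 4, which is not drawn, the median of the 10 genes was 0.40. That of the lipolysis list was then 0.36, and those of the other lists were below 0.

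Markers of other liver cells moved with the groups and with replicate 4. Of 15 Kupffer cell and macrophage markers 13 fell and none rose, and all 15 fell without Alb-Cre replicate 4. Their summed level was 366 to 374 FPKM in Alb-Cre replicates 1 to 3, 1212 FPKM in replicate 4 and 1262 to 1299.8 FPKM in Alb-WT. The sum hid a split in replicate 4: Clec4f, Vsig4, Timd4, Cd5l, Adgre1, Csf1r and Folr2 were below every Alb-WT library. Marco, Cd68 and Gpnmb were above every one, and Lyz2, C1qa, C1qb, C1qc and Trem2 were within the Alb-WT range. Of 13 neutrophil markers 7 were tested and 6 fell, and all 7 fell without Alb-Cre replicate 4. Sums were 109.7 to 119.9 FPKM in Alb-Cre replicates 1 to 3, 1303 FPKM in replicate 4 and 520.3 to 603 FPKM in Alb-WT. Lcn2 alone was 102 to 112, 1213 and 252 to 278 FPKM in that order, so the sums of the Alb-Cre libraries largely follow Lcn2. In Alb-WT S100a8 (67.7 to 102 FPKM) and S100a9 (169 to 204 FPKM) also made up much of the sum. In replicate 4 S100a8, S100a9, Elane, Mmp9, Cxcr2 and Retnlg were below every Alb-WT library, and Csf3r was within the Alb-WT range. Hepatocyte markers summed to 44082 to 45519 FPKM in Alb-Cre replicates 1 to 3, 35169 FPKM in replicate 4 and 42315 to 43280 FPKM in Alb-WT. Of 11 tested 1 rose and 1 fell, whereas 4 rose and 6 fell without Alb-Cre replicate 4. Of the tested markers 5 of 11 for sinusoidal endothelium and 4 of 11 for stellate cells fell, and none of these rose. For bile duct cells 5 of 6 fell, for adipocytes 3 of 4, and none rose. Without Alb-Cre replicate 4 the lower counts were 6, 7, 5 and 3 in that order, and 2 endothelial markers were called higher. For all marker lists the shares over all genes are 8.48% higher and 23.3% lower, and 15.2% and 46.1% without that library. Macrophages also express Cd36 and Plin2, and leukocytes G0s2, and the part of these cells in the results was not tested. The adipocyte markers that fell were Lpl, Adrb3 and Pck1. Pck1, at 1474 to 1571 FPKM in Alb-WT, made up nearly all of that list's Alb-WT sum of 1487 to 1583 FPKM. The adipocyte markers Adipoq, Lep, Plin1, Cfd, Retn and Aqp7 were not analysed here, and the fat cell carrier Fabp4, given above, did not pass. The adipocyte count therefore cannot be read as a change in fat cells. In whole liver RNA, fewer cells of a type and less RNA per cell cannot be told apart.

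The tested gene whose log2(FPKM + 1) profile over the 8 libraries was most like that of Fabp1 was the major urinary protein gene Mup15 (Pearson's r = 0.9975), a member of a family of near-identical genes whose reads are hard to separate. For Fabp2 it was Bdh1, a ketone body enzyme (0.9956), for Plin2 Bhmt2 (0.9961), for Plin5 the glutathione transferase gene Gsta3 (0.9942), for Pnpla2 Cnppd1 (0.9939) and for G0s2 the fatty acid oxidation enzyme gene Ech1 (0.9924). The highest values of the other genes were 0.9729 for Dgat2 with Smim22, 0.9555 for Cd36 with Uty, 0.9542 for Cidec with Gorasp1 and 0.9295 for Cideb with Mgam. These values describe 8 libraries that share their groups and replicate 4, and each was picked from 11077 genes.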

How the data were processed

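RNA of 4 Alb-Cre and 4 Alb-WT liver libraries was sequenced; the sample titles give group and replicate. The values deposited by the authors are FPKM per gene symbol, in 1 column per library. The sample descriptions name 10x Genomics, while the labels' protocol describes Trizol extraction and Illumina libraries, and the values were treated as bulk RNA. The aligner was HISAT2 2.0.5, per the submitters' processing notes, where hg38 and mm39 are both listed as builds without a role. Counter, annotation and strand setting: not given in the sources used here. The file holds 13703 rows, no value of 0 and a smallest value of 0.00167 FPKM. A gene without fragments in 1 or more of the 8 libraries is therefore not analysed here. Whole fragments were recovered from the FPKM steps for 13702 rows (99.99%, relative tolerance 1e-08), using exon lengths of GENCODE M21, which held within 1 bp for 12739 of 13453 rows. Recovered fragments served only for depth, counting intervals and limma-voom.

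The test was limma 3.58.1 (R 4.3.3) on log2(FPKM + 1) (empirical Bayes with intensity trend, no covariate beside genotype), over the 11077 rows averaging 0.5 FPKM or more, with Benjamini-Hochberg adjustment over all of them. All 10 genes passed that filter. Ratios were tested by exact permutation. The fit was tested on simulated data. The genes and lists were chosen with earlier results of these data known, so counts over them are descriptions. From each pathway list up to 3 called genes per direction with the smallest p were named, other genes being added after their values were seen (Fabp4, Lipe, Dgat1, Pparg, Nop9 and those in the closing section). Alternatives covered pseudocount, filter, scaling, gene length correction, limma-voom, the intensity trend, the replicate block and leaving out each library. Tables and figures were made in Python 3.11.15 (pandas 2.3.3, scipy 1.17.1, matplotlib 3.10.9), and sequences came from RefSeq.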

Additional observations from a re-analysis of the deposited data

Results flagged for a closer look

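Within each group of 4 libraries, a value was marked when its gap to the nearest other library took up more of the group's range than Dixon's 95% critical value allows, which chance does in about 1 of 20 groups. Of 76 groups examined, over the 10 genes, Bicd2, the named pathway genes and the ratios, 9 were marked, 8 of them for Alb-Cre replicate 4. In that library Plin2 was 96.8 FPKM, with 119 to 123 FPKM in replicates 1 to 3. Gpam was 19.9 against 34.2 to 36.5 FPKM and Cebpa 98.8 against 139.7 to 147 FPKM. Higher there were Slc27a1 (1.21 against 0.793 to 0.834 FPKM), Lpl (6.82 against 2.27 to 2.9 FPKM) and Soat1 (1.98 against 0.431 to 0.497 FPKM). The Pnpla2 to G0s2 ratio was 1.61 against 0.382 to 0.512, and the Plin2 to Plin5 ratio 11.1 against 4.48 to 5.1. Lyplal1 was marked in Alb-Cre replicate 3, at 13.8 FPKM against 10.7 to 11.1 FPKM. Fabp1, G0s2 and Plin5, in which replicate 4 also stood apart, did not reach the limit.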

How the results depend on the processing

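Fabp2, Plin2 and Pnpla2 kept their direction and their call under all 19 alternatives, with log2 fold changes of 1.10 to 1.42, 0.47 to 0.79 and -0.49 to -0.22. Fabp1 and Cidec kept their direction and lost their call only on leaving out single libraries, as given with them; Cidec was not tested where a mean of 5 FPKM was required. Leaving out 1 library gave 2 to 6 of the 10 genes called higher and 546 to 1679 of all genes higher and 1205 to 5112 lower, the highest values without Alb-Cre replicate 4. It moved Plin5 between -0.11 and 0.40 and Cideb between -0.078 and 0.23. The main counts were 939 higher and 2582 lower, 73.3% of calls being lower (median gene -0.13). A common FPKM sum gave 623 higher (82.9% lower, median -0.19) and turned Plin5 to -0.037. Median-of-ratios scaling gave 1874 and 1516 (44.7%, median 0.02) and turned Cd36 and Dgat2 to 0.078 and 0.081. Quantile normalization gave 1554 and 1469 (48.6%, median 0.02) and called 2 of the 10 genes lower. The length correction gave 1503 lower (51.8%, median -0.01), and a mean of at least 5 FPKM 981 lower (55.7%, median -0.04).

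With the replicate block the counts were 613 higher and 1631 lower, and the calls of the 10 genes did not change, while Cebpa (limma adjusted p = 0.0777) and Nr1i2 (0.123) lost theirs. Same-numbered libraries did not deviate together (correlations of deviations from the group means -0.065, -0.054, -0.097 and 0.013), so the numbers were not taken as pairs. Over the alternatives run for them, the ratio differences ranged from -1.70 to -1.01 (Pnpla2 to G0s2), 0.26 to 0.70 (Plin2 to Plin5) and 0.64 to 1.14 (Cidec to Cideb). The depth limits Cidec and Cideb, which rested on 21 to 152 fragments per library.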

Other observations

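Several pathway genes outside the 10, picked after their values were seen, were split within the Alb-Cre group like G0s2 and Plin5. Acsl1, the main acyl-CoA synthetase of liver, was 51.4, 49.8 and 53.7 FPKM in Alb-Cre replicates 1 to 3, 15.5 FPKM in replicate 4 and 32.4 to 34.5 FPKM in Alb-WT. Lpin1, a phosphatidate phosphatase gene, was 36.7, 36.8 and 37.2 FPKM, then 12.4 FPKM, against 17.6 to 19.1 FPKM. Fitm1, which takes part in droplet formation, was 11.7, 11.8 and 12.5 FPKM, then 4.37 FPKM, against 4.75 to 6.07 FPKM. Ces1d, a triglyceride hydrolase gene of a family with similar members, was 185, 187 and 174 FPKM, then 21.3 FPKM, against 128 to 133 FPKM. None of these 4 was called over 8 libraries (limma adjusted p = 0.697, 0.158, 0.0753 and 0.743), and all 4 were called higher without replicate 4.

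Lpgat1, an acyltransferase gene, was high in replicate 4 alone. It was 24.2 to 25.5 FPKM in Alb-Cre replicates 1 to 3, 51.3 FPKM in replicate 4 and 23.5 to 25.4 FPKM in Alb-WT. Abhd5, the coactivator of Pnpla2, also picked after its values were seen, rose (log2 fold change 0.31, limma adjusted p = 0.0188). Its level was 3.37, 3.83, 3.69 and 3.14 FPKM in Alb-Cre and 2.41, 2.62, 2.59 and 2.92 FPKM in Alb-WT. The lipase and its coactivator thus differed in direction. Both were without overlap between groups, as were 9.27% of all genes on the higher side and 21.4% on the lower. Without Alb-Cre replicate 4 Abhd5 stood at 0.35 (limma adjusted p = 0.00152), and the other alternatives were not examined for it.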
